A study of Mus musculus with 3 samples.

Results

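Macrophages of the infarcted mouse heart were split by whether a transcript of F3, the gene of tissue factor, was found in the cell. Of 25762 cells in the 18 files, 14451 met the definition of a macrophage, and 996 of these held at least 1 F3 molecule. A macrophage was a cell with 200 or more genes, in which C1qa, C1qb and C1qc made up at least 0.1% of all molecules. It also held no molecule of Cd3e, Cd3d, Cd3g or Cd79a, and less than 1% of its molecules came from S100a8 and S100a9. Each F3-positive cell was set against an F3-negative macrophage drawn from the same file and the same of 4 equal-sized bins of total molecules. Files with at least 10 cells a side were kept, which left 987 cells a side in 17 of the 18 files. Since F3 itself chose the cells, its own level and those of the other genes in this definition are given as descriptions without a test.

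The cells were leukocytes selected by CD45 from infarcted hearts after permanent ligation of a coronary artery, and their polyadenylated RNA was read on the BD Rhapsody single-cell platform. The pooled mice were F7fl/fl CX3CR1Cre and F7fl/fl WT, and hearts were taken at several time points. In both genotypes the F7 gene carries the floxed allele, and in the first the Cre recombinase is driven by Cx3cr1, a gene of macrophages and monocytes but also of some other leukocytes. Each file holds the cells of 1 sample tag, which marks a biological replicate per the labels' protocols, and libraries 1, 2 and 3 held 7, 5 and 6 tags. The sources used here name no age, sex or strain background, and no genotype or time for a single tag, so genotypes and times were not compared and both sides of each comparison came from the same tag. Library 1 was made on other beads and with another pipeline release than libraries 2 and 3, and with intronic reads counted. Libraries and processing can therefore not be told apart. The labels name the run of library 1 F7_d3 without explaining the name, and the time points within each library are not given. Library and time point can therefore not be told apart either.

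Tissue factor is the membrane receptor of coagulation factor VII. The complex of the pair cleaves factor X, and activated factor X together with factor V then turns prothrombin into thrombin. The complex also cleaves protease-activated receptors, through which it signals into cells. Monocytes and macrophages are known to make tissue factor after contact with bacterial products, cytokines or damaged tissue, and binding sites for AP-1, NF-kB, Sp1 and Egr-1 are known in its promoter.

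The F3 gene (ENSMUSG00000028128) spans bases 121723537 to 121735048 of the plus strand of chromosome 3 in GRCm38. Its promoter is shown because members of the AP-1 and NF-kB families were among the genes that differed between the sides. The promoter of Il6, one of the genes with the largest difference, is shown for comparison. Both are the 250 bases before the RefSeq start site in GRCm38.p6, chr3:121723287-121723536 on the plus strand and chr5:30012864-30013113 on the plus strand. Capitals mark the matches to the AP-1 letters TGANTCA.
F3: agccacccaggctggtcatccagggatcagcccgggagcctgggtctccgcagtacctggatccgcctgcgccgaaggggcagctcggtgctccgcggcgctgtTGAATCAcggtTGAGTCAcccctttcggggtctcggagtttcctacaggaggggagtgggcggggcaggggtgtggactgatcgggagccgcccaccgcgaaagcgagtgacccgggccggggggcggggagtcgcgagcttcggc
Il6: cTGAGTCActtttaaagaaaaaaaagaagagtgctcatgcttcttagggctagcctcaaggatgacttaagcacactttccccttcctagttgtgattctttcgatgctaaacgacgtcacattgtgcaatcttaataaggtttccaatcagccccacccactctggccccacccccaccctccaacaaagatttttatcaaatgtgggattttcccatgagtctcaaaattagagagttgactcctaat

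The F3 window held 2 AP-1 matches, from 146 to 140 and from 135 to 129 bases before the start site. Both strands were searched for TGANTCA (AP-1), GGANTTTCC (NF-kB), GCGNGGGCG (Egr-1) and GGGCGG (Sp1), and no 2 matches of different motifs overlapped in the F3 window. It also held 1 NF-kB match, starting 112 bases before the start, 3 Sp1 matches and no match to the Egr-1 letters. Among 27025 RefSeq promoters of this length, 6.87% held the AP-1 letters, 1.05% the NF-kB letters, 4.65% the Egr-1 letters and 32.9% the Sp1 letters. Il6 held 1 AP-1 and 1 NF-kB match, and the windows of F7, F10 and F5 held no AP-1 match. Of the 12 genes with the largest positive difference 9 had a promoter entry, and 5 of these (Serpinb2, Il6, Lif, Il1a and Olr1) held an AP-1 match. Of the 12 with the largest negative difference 8 had an entry, and Slamf7 was the 1 with a match. A match of letters is a description of the sequence and not evidence of binding.

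F3-positive cells were a minority of macrophages in every file. The pooled share was 6.89% (95% exact binomial interval 6.48 to 7.32), and over the 18 files the share ran from 1.56 to 23.2% with a median of 4.97%. The median file stood at 5.17% in library 1, 4.06% in library 2 and 5.32% in library 3. Tag 10 of library 1 (23.2%) and tag 7 of library 3 (17.1%) lay far above all other files, the next of which was at 9.34%. Tag 10 of library 1 alone gave 26.9% of the F3-positive cells and 37.1% of the F3 molecules in macrophages. In CPM, counts scaled to 1000000 molecules of the cells in question, F3 ran from 2.62 to 65.1 over the files with a median of 8.64.

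**Figure D1:**
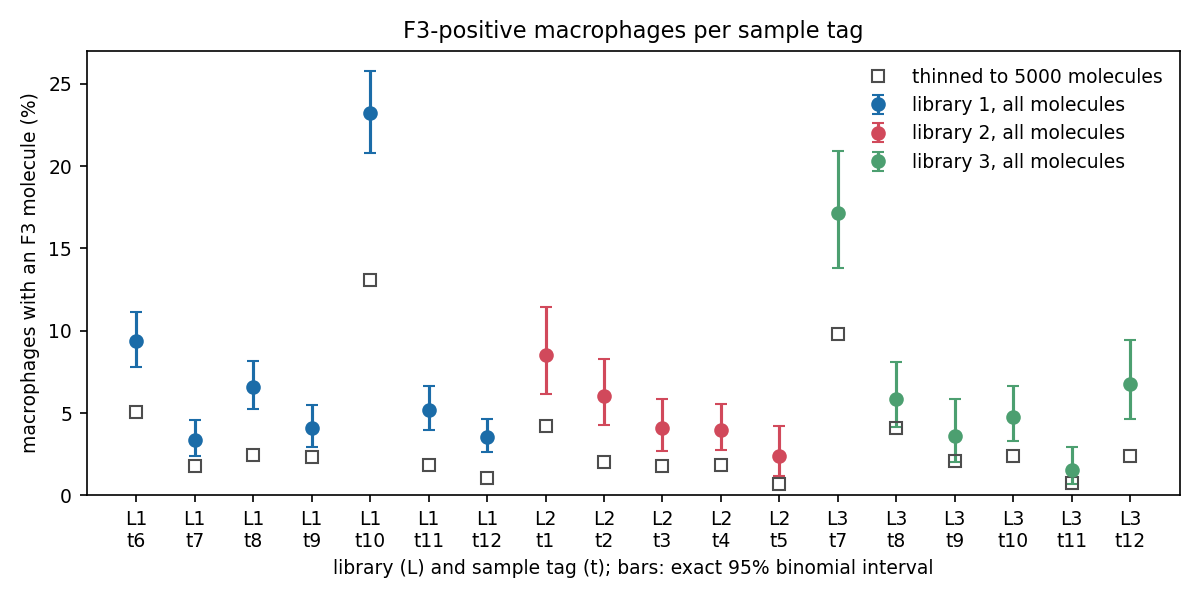
Percentage of macrophages with at least 1 F3 molecule in each of the 18 sample tags (L, library; t, tag). Filled points with exact 95% binomial intervals use all molecules, and open squares use cells thinned to 5000 molecules; tag 10 of library 1 and tag 7 of library 3 are the highest on both measures.

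Detection of F3 depended on the depth of the cell. By 4 equal-sized bins of total molecules within a file, the pooled share was 3.95, 4.74, 7.33 and 11.6% from the shallowest to the deepest. After each cell was thinned to 5000 molecules the median file stood at 2.21% (range 0.718 to 13.1), with the same 2 files highest. T cells, which should lack F3, gave 1 of 178 cells with a molecule (0.562%) at a median of 7912 molecules per cell, against 20461 in macrophages. Thinned alike, 0 of 143 T cells held F3, which allows a share of up to 2.10%, against 3.41% of macrophages. Cells outside the definition with collagen genes at 0.1% of molecules or more held F3 in 88 of 544 cases (16.2%). Cells just inside and just outside the C1q threshold held F3 in 33 of 314 cells at a C1q share of 0.10 to 0.12% and in 33 of 329 cells at 0.08 to 0.10%. Intervals and limits cover counting error only.

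F3 molecules were concentrated in few cells. Of the 996 positive cells 400 (40.2%) held exactly 1 molecule, 303 held 5 or more and 169 held 10 or more. The last group carried 64.4% of the 5911 F3 molecules, and the highest cell held 84. In the sums per file the F3-positive side held 66.2 to 304 CPM of F3 (median 129), and the F3-negative side held 0 by the rule.

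The 2 sides were close in depth and in the share of mitochondrial transcripts. The median over the 17 files of the median molecules per cell was 28966 on the F3-positive and 27373.5 on the F3-negative side. F3-positive cells were the deeper in 11 of 17 files, so the bins left some difference in depth. Mitochondrial transcripts made up 5.02 and 4.87% of molecules. Both sides held macrophage markers at a like summed level, 7 genes with a median of 16879 CPM (12592 to 20200) and 16924 CPM (11372 to 22885). Lyz2 gave most of that sum, at a median of 12547 against 11834 CPM, so the like level mostly reflects this 1 gene of the list. Within that list Cd14, a co-receptor for bacterial lipopolysaccharide, and Csf1r were higher in F3-positive cells. Cd68, a lysosomal protein, and the Fc receptor gene Fcgr1 were lower, with Cd68 at a median of 995 against 1758 CPM and lower in 17 of 17 files (log2 difference -0.82 ± 0.10 SE, edgeR adjusted p = 5.53e-07). The C1q genes, which the rule used, took 0.493 against 0.728% of molecules. S100a8 and S100a9, whose summed share the rule limited, stood at a median of 30.9 against 6.93 CPM (higher in 14 of 17 files) and 7.39 against 3.70 CPM (higher in 12).

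Across all genes the sides differed broadly. Of 8202 genes tested with edgeR's quasi-likelihood test with the file as a block, 1493 were higher in F3-positive cells (18.2%) and 1525 lower (18.6%) at a Benjamini-Hochberg adjusted p below 0.05. The median log2 difference over all genes tested was -0.04. A gene could pass the filter on low counts through the side where it is high. Calls within the lists below therefore cover only the members tested, and untested members are in no count of calls. Ranges of the 2 sides over the 17 files did not overlap for 3 genes (0.0366% of those tested), all higher: Lif, a cytokine of the interleukin-6 family, Orai2, a calcium channel gene, and Plek, a substrate of protein kinase C. The lists below were read against those percentages, and members that the naming rule did not pick were chosen after their values were seen.

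**Figure D2:**
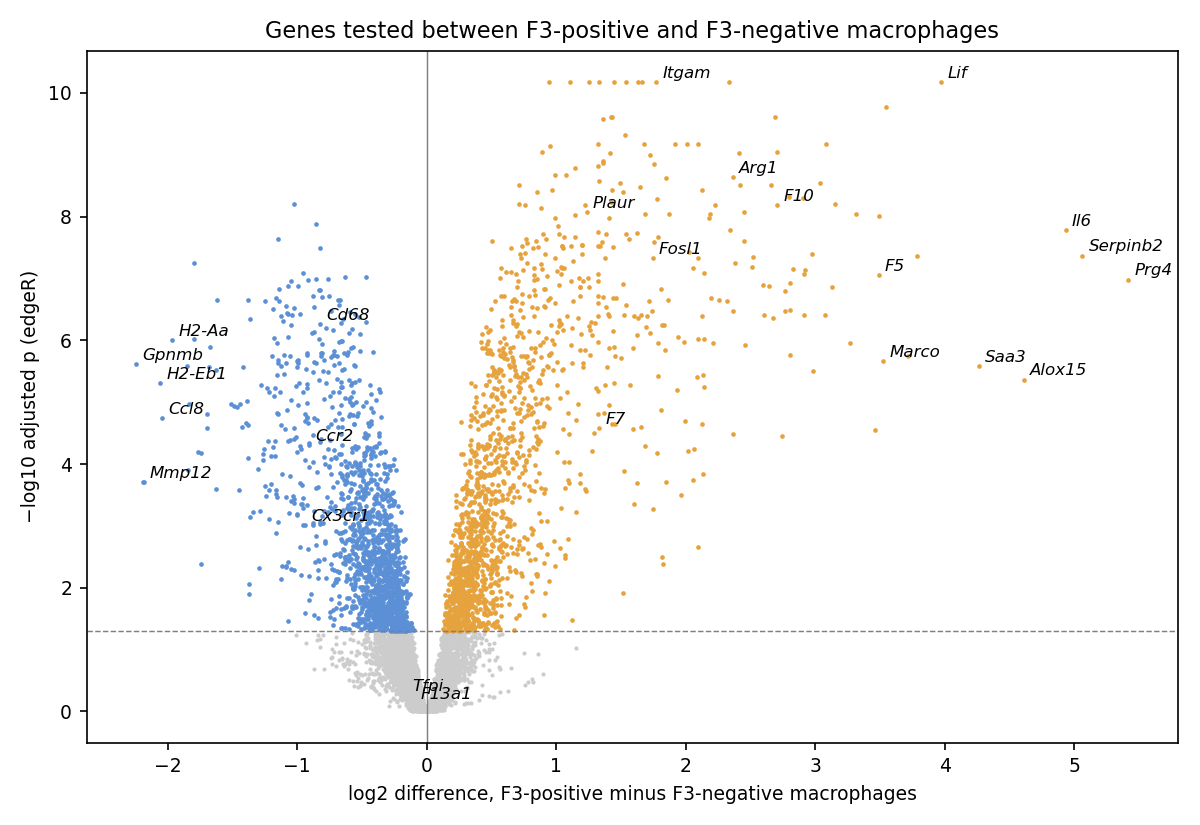
Log2 difference between F3-positive and F3-negative macrophages (x axis) and −log10 of the edgeR adjusted p (y axis) for the 8202 genes tested, 1 point per gene, orange for higher, blue for lower and grey for not called, with the 0.05 threshold dashed. Prg4, Serpinb2 and Il6 lie farthest to the right and Gpnmb farthest to the left among the labelled genes, while F13a1 and Tfpi lie near 0.

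Transcripts of other cell types were present at low and variable levels on both sides. The 10 fibroblast markers summed to a median of 436 CPM on the F3-positive side (23.3 to 5927) and 217 CPM on the other (34.3 to 2155), higher in 8 of 17 files, and none of the 6 tested was called. Limited to cells with collagen and Dcn below 0.1% of molecules, an alternative chosen after seeing the data, 1524 genes were higher and 1554 lower. That limit left 973 cells a side, against 987 without it, so it removed few cells. Limited to cells with 0 collagen and Dcn molecules, which left 414 cells a side in 7 files, 1039 genes were higher and 746 lower. Mesothelial markers summed to 1.19 CPM (0 to 118) and 0.972 CPM (0 to 4.65), with Msln, Upk3b, Upk1b and Krt19 at a median of 0 on both sides. Of the 9 monocyte markers 7 were tested. Vcan and Nr4a1 were among those higher, Ccr2 and Spn were lower, and Ly6c2 did not pass (median 13.8 against 21.8 CPM). The lists for cardiomyocytes, endothelium, T cells and B cells had 1 tested gene each (Tpm1, Fabp4, Il7r and Ighm). Each was lower in F3-positive cells, as was Mmp8, 1 of 3 neutrophil genes tested. Tpm1 gave 1319 and 2273 molecules on the F3-positive and F3-negative side, against 47 and 47 of Tnni3, the next in its list. Fabp4 gave 1178 and 3132 (Pecam1 205 and 323), Il7r 2181 and 5902 (Trbc2 38 and 35) and Ighm 379 and 1010 (Ebf1 147 and 139). Whether Tpm1, Fabp4, Il7r and Ighm came from those cell types was not tested. Tpm1 did not pass without library 1 (-0.66, adjusted p = 0.111). Mast cell and basophil markers summed to 1.73 CPM (0 to 12.8) on the F3-positive and 2.44 CPM (0 to 1981) on the F3-negative side, and erythroid markers to 7.44 CPM (0 to 1809) and 8.64 CPM (0 to 19.4). The part of these cells in the differences below was not tested beyond those values.

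F7, F10 and F5, which act with or just after tissue factor in clotting, were higher in F3-positive macrophages, while the other coagulation genes were mixed. Of the 22 coagulation genes 21 were counted and 10 tested, and 5 were higher and 2 lower, with a median log2 difference of 0.38. F7, the protease that tissue factor binds, stood at a median of 27.1 CPM (0 to 98.7) in F3-positive and 10.8 CPM (0 to 60.3) in F3-negative cells. The ranges overlapped, but F7 was higher on the F3-positive side in 15 of 17 files and lower in 1, with both sides at 0 in the remaining file. The log2 difference was 1.33 ± 0.21 (SE, n = 17 files, edgeR adjusted p = 2.64e-05), a fold of 2.51. An F7 molecule was found in 383 of 987 F3-positive cells (38.8%, exact interval 35.8 to 41.9) and in 202 of 987 F3-negative cells (20.5%, 17.99 to 23.1). Among T cells the share was 1.12%, but these held a median of 7912 molecules per cell, against 29209 and 28643 on the 2 sides. Over the files the F7 share was 17.8 points higher in F3-positive than in F3-negative cells (SD 11.1, n = 17, two-sided paired permutation p = 4e-05). Within the libraries the F7 difference was 0.89, 1.89 and 2.11 in libraries 1, 2 and 3. The interaction of library and side did not pass for F7 (edgeR adjusted p = 0.360). Without library 1 the F7 difference was 2.00 (adjusted p = 6.27e-05). Whether the Cre had removed F7 in any of these cells is unknown per file, and its part in the F7 values was not tested.

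F10, the gene of the factor that the complex cleaves, was higher in all 17 files. Its level was 225 CPM (89.3 to 354) in F3-positive and 28.3 CPM (0 to 140) in F3-negative cells, a log2 difference of 2.70 ± 0.23 (adjusted p = 6.55e-09). F5, the cofactor of activated factor X, stood at 199 CPM (68.6 to 455) against 14.6 CPM (0 to 228), higher in 17 of 17 files with a log2 difference of 3.49 ± 0.36 (adjusted p = 8.72e-08). F10 was found in 74.9% and F5 in 62.3% of F3-positive cells, against 33.9 and 17.6% of F3-negative cells. Protein S (Pros1) and thrombomodulin (Thbd), which belong to the anticoagulant protein C pathway, were higher by 0.75 and 0.76 on the log2 scale. Annexin A5 (Anxa5), which covers exposed phosphatidylserine, and Gas6, a vitamin K-dependent ligand, were lower by -0.60 and -1.23. F13a1, the fibrin-crosslinking factor, did not pass (303 against 363 CPM, log2 difference -0.09 ± 0.17, adjusted p = 0.730), and neither did Tfpi, the inhibitor of the tissue factor pathway (17.7 against 17.6 CPM, -0.16 ± 0.19, adjusted p = 0.538).

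**Figure D3:**
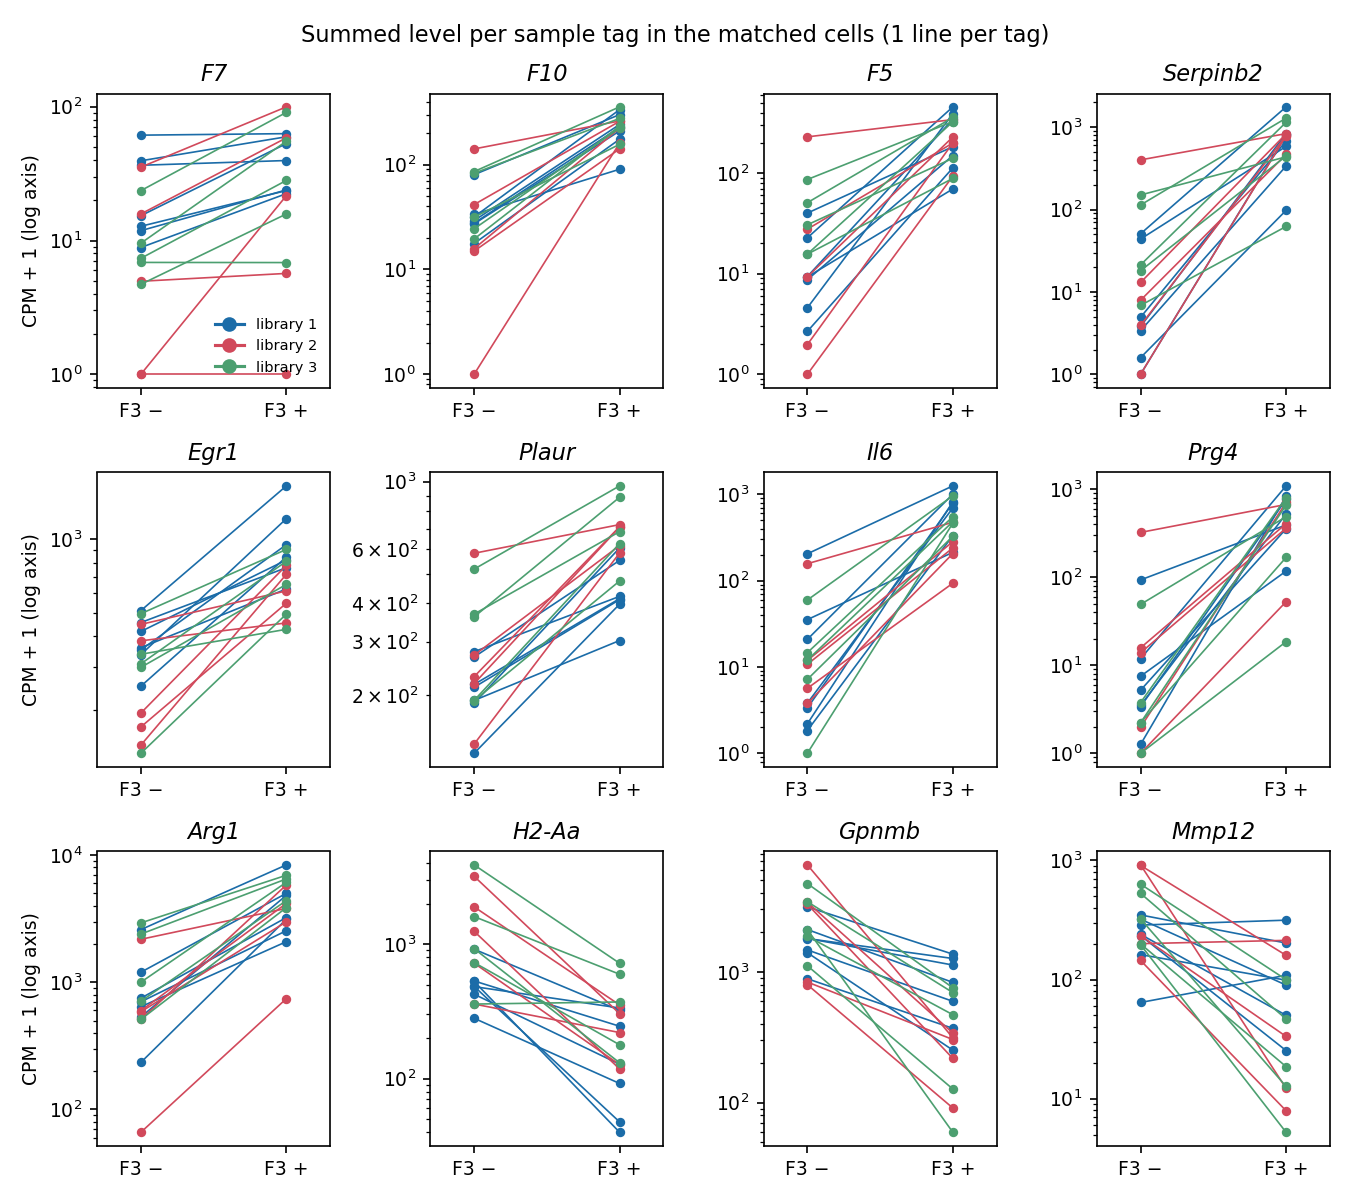
Level of 12 genes as CPM plus 1 (log axis) in the summed F3-negative (F3 −) and F3-positive (F3 +) macrophages, 1 line for each of 17 sample tags, coloured by library. F10, F5, Serpinb2, Egr1, Plaur, Il6, Prg4 and Arg1 are higher on the F3-positive side in every tag and Gpnmb lower in every tag, while F7 is higher in 15.

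Genes that act on the dissolution of clots moved mostly one way. Of 13 fibrinolysis genes 8 were tested, 6 were higher and none lower (median log2 difference 0.84). Serpinb2, an inhibitor of plasminogen activators, stood at 787 CPM (61.3 to 1764) against 6.93 CPM (0 to 400), higher in 17 of 17 files by 5.06 ± 0.49 (adjusted p = 4.27e-08). The urokinase receptor Plaur was higher in all files as well, at 606 CPM (301 to 967) against 218 CPM (129 to 582), by 1.24 ± 0.11. Its ligand urokinase, Plau, did not pass in this comparison (50.8 against 96.6 CPM, -0.47 ± 0.24, adjusted p = 0.129), but was lower without library 2 (-0.59, adjusted p = 0.00669), without tag 5 of library 2 alone (-0.63, adjusted p = 0.00714) and in cells with at least 2 F3 molecules (-1.38, adjusted p = 1.55e-05). S100a10 and Anxa2, which together bind plasminogen at the cell surface, were higher by 0.45 and 0.22.

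Receptors for clotting proteases were scarcely detected in macrophages. F2r gave 74 molecules on the F3-positive and 84 on the F3-negative side over all files, and F2rl1 gave 5 and 3, so neither passed the filter. Of the 11 members of this list 6 were tested. Gnaq and Rhoa were higher and Gna12 and Arrb2 lower, which left a median of -0.02. Of 15 genes linked to the exposure and redox control of tissue factor at the surface 14 were tested, and 6 were higher and 1 lower (median 0.12). Txnrd1, a thioredoxin reductase, rose by 0.57, the actin crosslinker Flna by 0.51 and the integrin chain Itgb1 by 0.42. The scramblase gene Ano6 (0.06), the receptor P2rx7 (-0.02) and the isomerase Pdia3 (-0.06) did not pass.

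Genes listed here as regulators of F3 transcription differed in both directions. Of 20 such genes 11 were higher and 7 lower, with a median of 0.30. In libraries 1, 2 and 3 alone 11 of 20, 3 of 19 and 8 of 20 were higher, and 6 were lower in each. In cells with exactly 1 F3 molecule 4 of 19 were higher and 3 lower (median 0.12). Egr1, an early growth response factor, stood at 764 CPM (426 to 1653) against 337 CPM (132 to 509) and was higher in 17 of 17 files by 1.32 ± 0.14 (adjusted p = 1.09e-07). The AP-1 family was split: Fosl1 was higher by 1.75 ± 0.17 in 17 of 17 files and Fosl2 by 0.49, while Fos (-1.10), Fosb (-0.93), Jun (-0.79) and Jund (-0.53) were lower. All 5 NF-kB subunit genes were higher, Nfkb1 by 0.47, Nfkb2 by 0.51, Rel by 0.49, Rela by 0.29 and Relb by 0.31, and so was their inhibitor Nfkbia by 0.88. Hif1a, the hypoxia-inducible factor, was higher by 0.79 and Sp1 lower by -0.21.

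Inflammatory cytokines made up one of the widest differences. Of 20 cytokine genes 14 were tested, and 8 were higher and 2 lower (median 1.00). The list summed higher in 17 of 17 files. Il6 stood at 473 CPM (92.3 to 1250) in F3-positive and 9.72 CPM (0 to 203) in F3-negative cells, a log2 difference of 4.93 ± 0.44 (adjusted p = 1.65e-08). It was found in 64.0% against 14.3% of cells. Il1a stood at 1489 CPM (259 to 2375) against 103 CPM (45.7 to 481), and the 2 ranges overlapped only between 259 and 481. Lif stood at 184 CPM (48.0 to 332) against 9.88 CPM (0.924 to 36.6), without overlap, a difference of 3.97 ± 0.24 (adjusted p = 6.69e-11). Il1b (1.70), Tnf (1.52), Osm (1.14), Il10 (0.85) and the T-cell co-stimulator Tnfsf9 (2.34) were higher too, while Ebi3 (-0.81) and Tnfsf12 (-0.55) were lower.

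Chemokine genes were more often higher than lower. Of 23 listed 18 were tested, and 10 were higher and 3 lower (median 0.63). Cxcl3 (2.60), Cxcl1 (2.10) and Cxcl2 (1.63), all ligands of the neutrophil receptor Cxcr2, were higher in 17 of 17 files, with Cxcl3 at 541 CPM (271 to 1337) against 102 CPM (0 to 525.9). Ppbp, another Cxcr2 ligand and a platelet gene, did not pass (-0.07, adjusted p = 0.936). The CC chemokines Ccl6 (1.32), Ccl9 (0.92), Ccl3 (0.71) and Ccl4 (0.54) were higher. Ccl24, an eosinophil chemokine, was higher by 2.98. Ccl8 was lower by -2.04 in 17 of 17 files, at 62.1 CPM (2.92 to 573) against 348 CPM (49.8 to 1218), Ccl12 by -0.99 and Cxcl16 by -1.16. Ccl2 (-0.14) and Ccl7 (-0.16) did not pass.

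Enzymes of the eicosanoid pathways and wound proteins followed. Of 14 genes for prostanoid and leukotriene synthesis 12 were tested, and 9 were higher and 1 lower (median 1.27). The cyclooxygenases Ptgs1 and Ptgs2 were higher by 2.13 and 1.79, the lipoxygenases Alox5 and Alox15 by 2.18 and 4.61, leukotriene C4 synthase (Ltc4s) by 2.64 and prostacyclin synthase (Ptgis) by 2.75, whereas the prostaglandin D synthase Hpgds was lower by -1.42. Of 18 wound and acute-phase genes 13 were tested, and 10 were higher and none lower (median 2.22). Arg1, which breaks down arginine, stood at 4169 CPM (742 to 8366) against 701 CPM (65.2 to 2926), higher in 17 of 17 files by 2.36 ± 0.18 (adjusted p = 2.25e-09). Saa3, an acute-phase protein, stood at 1906 CPM (32.1 to 8158) against 122 CPM (3.34 to 1761), a difference of 4.26 ± 0.56 (adjusted p = 2.59e-06). Slpi (3.72) and Wfdc21 (3.78), which encode antiprotease-type secreted proteins, fibronectin (Fn1, 2.41) and the itaconate enzyme Acod1 (2.91) were also higher. Chil3 (0.57) and Spp1 (-0.39) did not pass.

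Markers of macrophages of the body cavities, which surround the heart and other organs, were higher among those tested. All 11 tested of 15 listed were higher, with a median of 2.81. Prg4, Serpinb2 and Alox15 stood at medians of only 2.77, 6.93 and 1.23 CPM on the F3-negative side. Such genes could pass the filter on low counts through the F3-positive side, so the filter may have set part of this shared direction. The untested members have no call. Prg4, the surface lubricant lubricin, stood at 487 CPM (17.5 to 1091) against 2.77 CPM (0 to 322), a log2 difference of 5.41 ± 0.56 (adjusted p = 1.04e-07). Gata6, the factor that sets the identity of these cells, was higher by 2.81, the adhesion protein Icam2 by 3.09 and Ltbp1, which binds latent TGF-beta, by 3.27. Of F3-positive macrophages 537 of 996 (53.9%, 50.8 to 57.0) held a molecule of Prg4, Alox15, Gata6 or Serpinb2, 4 genes picked after their values were seen, against 186 of 987 matched F3-negative cells (18.8%, 16.5 to 21.4). Read the other way, F3 was found in 24.2% of macrophages with such a molecule and in 3.75% of those without. That order held in 18 of 18 files, but the 4 genes were picked from these same cells. It therefore restates the comparison above and is no separate evidence. The median depths were 26347 and 19635 molecules per cell, and the part of depth in these shares was not tested.

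F3-positive cells without any molecule of these 4 genes were compared in the same manner, which left 451 cells a side in 16 files. In this alternative, chosen after seeing the data, 743 genes were higher and 544 lower of 6116 tested. The differences of Il6 (4.95), Lif (3.79), Il1a (4.03), F5 (2.93), F10 (2.39) and Arg1 (2.08) still passed, as did those of Gpnmb (-1.81) and H2-Aa (-1.53). F7 fell under the filter on low counts there. It stood at 14.1 CPM (4.66 to 96.2) against 9.49 CPM (0 to 58.1), higher in 12 of 16 files, with a mean log2 difference of 1.16 (SD 2.21, exact two-sided paired permutation p = 0.0502). Ccr2 (-0.27, adjusted p = 0.417) and Mmp12 (-0.95, adjusted p = 0.164) no longer passed.

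Genes of tissue-resident cardiac macrophages split. Of 16 listed 13 were tested, and 6 were higher and 5 lower. The list summed to a median of 4292 CPM (2086 to 6290) in F3-positive against 6515 CPM (3470 to 9060) in F3-negative cells, higher in 1 of 17 files. The scavenger receptor Cd163 (2.10), the hyaluronan receptor Lyve1 (2.06), the complement receptor Vsig4 (1.83), the phosphatidylserine receptor Timd4 (1.81) and Fcna (2.80) were higher, along with Ccl24 above. The fitted values were lowest in library 3, but no difference between libraries passed. By the fit with library and side, in libraries 1, 2 and 3, Cd163 stood at 3.30, 2.56 and 0.0056, Lyve1 at 2.83, 2.36 and 0.96, Vsig4 at 2.37, 2.33 and 0.66, Timd4 at 2.06, 2.54 and 0.81 and Fcna at 3.78, 2.90 and 1.52 (interaction adjusted p 0.231 to 0.775). In library 3 alone 3 of the 13 genes were higher and 4 lower (median -0.22). Igf1 (-1.26), Fcrls (-1.49), Selenop (-1.09), Maf (-0.67) and Mrc1 (-0.53) were lower, and Folr2 (0.24) and Cbr2 (0.11) did not pass. Lyve1 was found in 28.1% of F3-positive and 8.004% of F3-negative cells. Cx3cr1, whose promoter drives the Cre of this study, was lower by -0.94 ± 0.21 (51.8 against 110 CPM, lower in 16 of 17 files, adjusted p = 0.000967). Ccr2, the receptor of recruited monocytes, was lower by -0.91 ± 0.15 (187 against 328 CPM, lower in 16 of 17 files, adjusted p = 4.95e-05), though not at a C1q share of at least 0.3% (-0.50, adjusted p = 0.115).

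**Figure D4:**
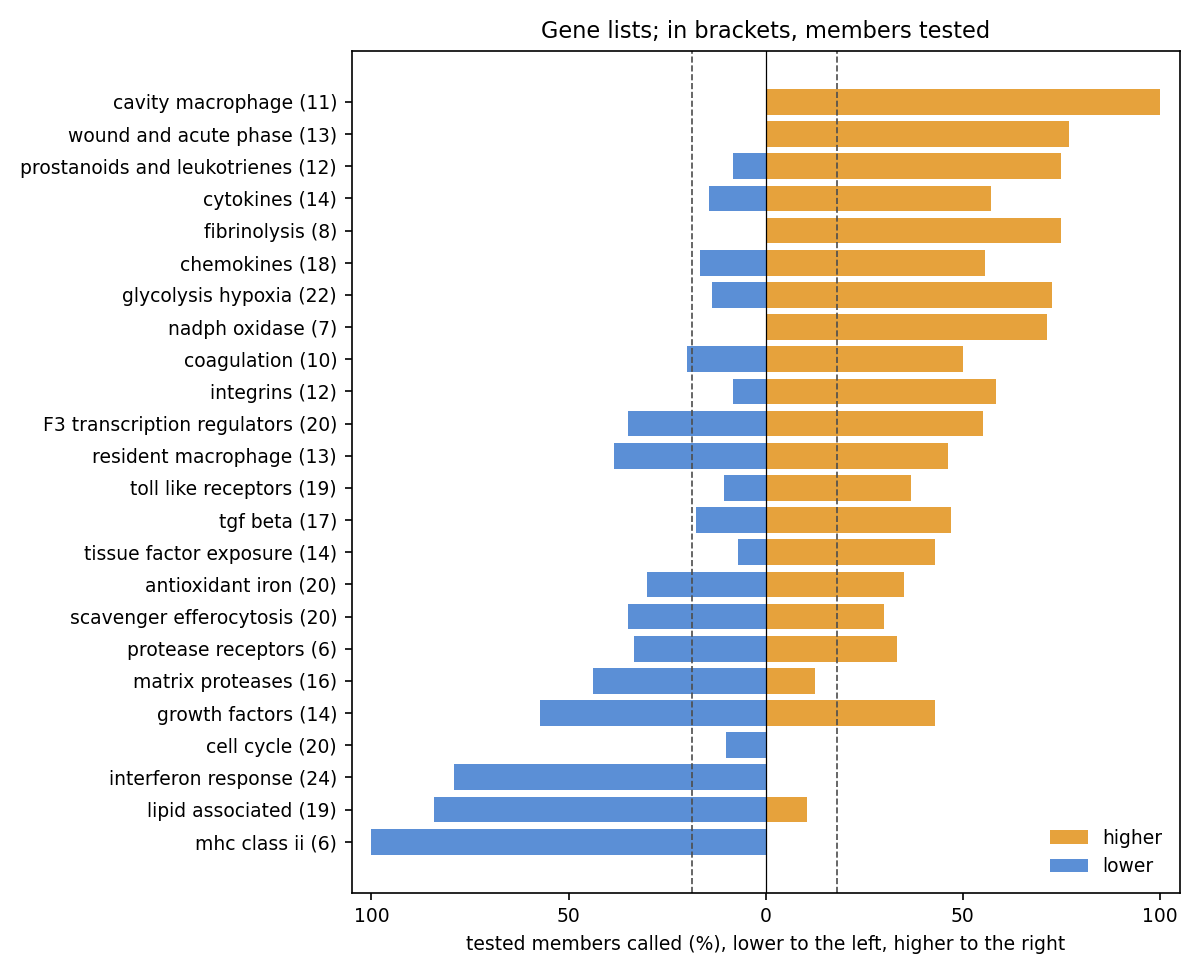
Share of the tested members of each gene list called higher (orange, right) or lower (blue, left) in F3-positive macrophages, with the number tested in brackets. Dashed lines mark the shares over all genes tested, 18.2% higher and 18.6% lower; cavity macrophage genes stand at the top and MHC class II genes at the bottom, in order of the median log2 difference.

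Antigen presentation and lipid handling were lower in F3-positive cells. Of 11 listed genes of the MHC class II machinery 6 were tested, and all 6 were lower (median -1.79). H2-Aa stood at 219 CPM (38.9 to 718) against 720 CPM (280 to 3874), lower in 16 of 17 files by -1.97 ± 0.24 (adjusted p = 9.97e-07), and H2-Eb1 at 131 CPM (12.7 to 575) against 424 CPM (187 to 2726), lower in all 17 by -2.06 ± 0.29. The share of cells with an H2-Aa molecule was 63.1% (60.02 to 66.1) against 66.5% (63.4 to 69.4), lower in 10 and higher in 3 of 17 files. Among T cells, which were shallower, it was 39.9%. Of 19 genes of lipid-laden macrophages 16 were lower and 2 higher (median -0.79). Gpnmb, a glycoprotein of such cells, stood at 369 CPM (58.4 to 1364) against 1869 CPM (796 to 6566), lower in 17 of 17 files by -2.24 ± 0.29 (adjusted p = 2.41e-06). The lysosomal proton pump subunit Atp6v0d2 (-2.19), the fatty acid carriers Fabp5 (-1.68) and Fabp4 (-1.16), lipoprotein lipase (Lpl, -1.43) and the nuclear receptor Pparg (-1.22) were lower as well. Cd9 (0.93) and the cholesterol exporter Abca1 (0.34) were the 2 that were higher. Without library 1 the Fabp4 value was -1.20 (adjusted p = 0.0651).

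Interferon-response genes were lower or not called. Of 26 listed 24 were tested, and 19 were lower and none higher (median -0.54). Ifit2 stood at 17.4 CPM (0 to 59.9) against 46.5 CPM (18.6 to 138). The list was less clear in single libraries, with 6 of 24, 3 of 23 and 12 of 22 lower in libraries 1, 2 and 3, and 1 of 22 lower in cells with exactly 1 F3 molecule. It was also 1 of 23 lower in cells with 0 collagen and Dcn molecules (7 files, median -0.22) and 10 of 23 at a C1q share of at least 0.3% (median -0.37). Ifit3 is close in sequence to Ifit3b, so its value (-1.38) is uncertain. Of 21 matrix proteases and their inhibitors 16 were tested, and 2 were higher and 7 lower. Mmp12, the macrophage elastase, stood at 49.2 CPM (4.23 to 314) against 239 CPM (63.3 to 917), lower in 14 of 17 files by -2.18 ± 0.41 (adjusted p = 0.000195), and the cathepsins Ctsb (-0.87), Ctsk (-1.13), Ctsl (-0.50) and Ctss (-0.56) were lower too. The inhibitor Timp1 (1.62) and the sheddase Adam10 (0.77) were higher.

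Among surface receptors of innate immunity the integrin chains were mostly higher. Of 14 integrin chains 12 were tested, and 7 were higher and 1 lower. Itgam (CD11b) stood at 2404 CPM (1053 to 3340) against 612 CPM (451 to 1905), higher in 17 of 17 files by 1.77 ± 0.11 (adjusted p = 6.69e-11), and its partner chain Itgb2 was higher by 1.14. Itgax (CD11c) went the other way, lower in 17 of 17 files by -1.63 ± 0.22. Of 21 Toll-like receptors and adaptors 19 were tested, and 7 were higher and 2 lower. Tlr2 (1.02), Tlr4 (0.60) and Cd14 (0.95) were among the former, and Tlr1 (-0.72) and Tlr8 (-0.32) were the latter. Scavenger and efferocytosis genes split, with 6 higher and 7 lower among 20 tested of 23 listed. Marco (3.52) and the oxidised-lipoprotein receptor Olr1 (3.49) led the former. The bridging protein Mfge8 was the lowest (-1.74 ± 0.45), though not past the threshold without library 3 (-1.42, adjusted p = 0.0549), and the receptor Axl was lower by -1.03.

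Glycolysis genes were mostly higher and antioxidant genes divided. Of 24 glycolysis and hypoxia genes 22 were tested, and 16 were higher and 3 lower (median 0.49). Slc16a3, which exports lactate, was higher by 1.41, phosphofructokinase Pfkl by 1.03, Hk2 by 0.85, Eno1 by 0.76 and Ldha by 0.65. Of the 7 subunits of the phagocyte NADPH oxidase 5 were higher and none lower, Ncf1 by 0.66, Ncf4 by 0.58 and Cybb by 0.42 ± 0.11. Without library 1 the Cybb difference did not pass (0.15, adjusted p = 0.334). The interaction of library and side did not pass for Cybb either (edgeR adjusted p = 0.180). Of 21 genes of antioxidant defence and iron handling 20 were tested, and 7 were higher and 6 lower. The former included the cystine carrier Slc7a11 (1.69), Sod2 (1.26) and glutathione reductase Gsr (1.08). The latter included the iron exporter Slc40a1 (-1.30, and -0.97 without library 3, adjusted p = 0.0632), Ftl1 (-0.53) and Fth1 (-0.33).

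Growth factor and TGF-beta genes held changes in both directions. Of 18 growth factor genes 14 were tested, and 6 were higher and 8 lower. Bmp2 (2.32), the EGF-family ligands Hbegf (2.01) and Areg (1.97) and Vegfa (0.74) were among the former, Igf1, Vegfb (-1.37), Pdgfc (-1.05) and Hgf (-0.57) among the latter. Of 24 TGF-beta pathway genes 17 were tested, and 8 were higher and 3 lower. Thbs1, which activates latent TGF-beta, stood at 4742 CPM (1573 to 8613) against 1553 CPM (219 to 3002), higher in 17 of 17 files by 1.92 ± 0.14 (adjusted p = 6.65e-10). Smad3 was higher by 0.98 and the receptor Tgfbr1 lower by -0.78, while Tgfb1 itself did not pass (53.0 against 53.4 CPM, 0.13 ± 0.09, adjusted p = 0.305).

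Of 20 cell-cycle genes 2 were lower, Pcna (-0.45) and Stmn1 (-0.71), and none was higher (median -0.51). Stmn1 did not pass without library 1 (-0.44, adjusted p = 0.441) or in 8 of the 17 fits that left out 1 file (adjusted p up to 0.0680), and Pcna not without library 1 (-0.37, adjusted p = 0.0715). In library 1 alone 15 of the 20 were lower, and in cells with little collagen 15 of the 20 as well, against 0 in library 2 and 0 in library 3. Mki67, a marker of cycling cells, did not pass (median 96.9 against 146 CPM, adjusted p = 0.999). A molecule of it was nevertheless found in more F3-positive cells, 469 of 987 (47.5%, 44.4 to 50.7) against 355 of 987 (35.97%, 32.97 to 39.1), higher in 17 of 17 files. Among T cells, which were shallower, the share was 20.8%.

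Levels were also read by the number of F3 molecules in the cell. Over matched F3-negative cells and cells with 1, 2 to 4, 5 to 9 and 10 or more F3 molecules (987, 400, 293, 134 and 169 cells), F7 stood at 22.7, 36.1, 41.6, 48.8 and 64.0 CPM. F10 went from 50.3 through 139, 258 and 312 to 417 CPM, and Il6 from 70.3 through 286, 654 and 973 to 1684 CPM. In the other direction Gpnmb went from 1957 through 1025, 363 and 108 to 72.3 CPM, and H2-Aa from 649 through 278, 181 and 155 to 86.7 CPM. Lyve1 was highest at 2 to 4 molecules (318 CPM) and lower at 10 or more (144 CPM), and Tfpi was lowest at 10 or more (9.45 CPM). The share of cells with 1 of the 4 cavity genes went from 18.8 through 37.8, 56.0 and 67.2 to 78.1%. Cells with more F3 molecules were also deeper, with a median of 26381 molecules at 1 and 33418 at 10 or more, and tag 10 of library 1 gave 71 of the 169 highest cells. These steps are pooled over files and were not tested. Without that tag F7 stood at 16.9, 33.7, 36.8, 47.9 and 58.4 CPM and Il6 at 21.5, 195, 555, 851 and 1567 CPM, and Prg4 in F3-negative cells at 22.2 CPM against 41.0 CPM with it.

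**Figure D5:**
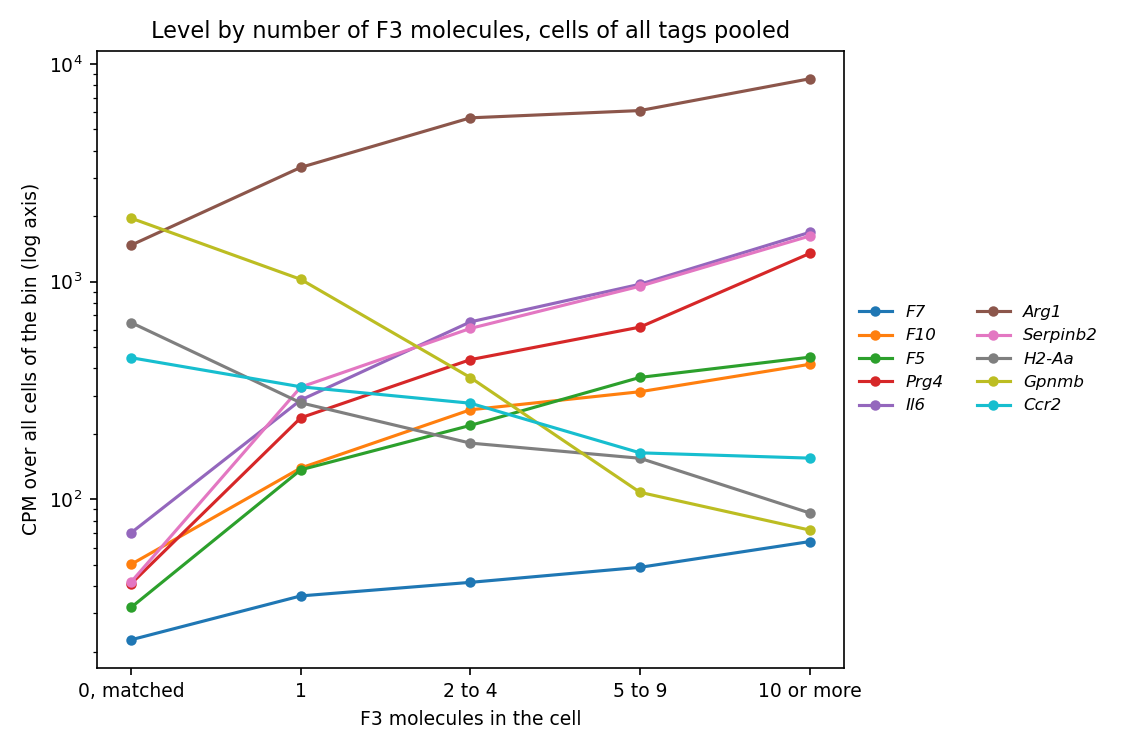
CPM (log axis) of 10 genes over all cells with 0 (matched), 1, 2 to 4, 5 to 9 and 10 or more F3 molecules, pooled over sample tags. F7, F10, F5, Prg4, Il6, Arg1 and Serpinb2 are higher at each step and H2-Aa, Gpnmb and Ccr2 lower.

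Cells with exactly 1 F3 molecule were also compared on their own, an alternative chosen after seeing the data, in 13 files with 364 cells a side. Of 6618 genes 403 were higher and 180 lower. F10 (1.90), F5 (2.51), Il6 (2.84) and H2-Aa (-1.99) passed there, and F7 did not (0.75 ± 0.36, adjusted p = 0.234).

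Differences between libraries were tested as an interaction of library and side. With edgeR 0 of 8202 genes passed (smallest adjusted p = 0.0600) and 848 had an unadjusted p below 0.05, while a DESeq2 likelihood ratio test called 63. Itgam differed by 1.78, 1.78 and 1.75 in libraries 1, 2 and 3 by the interaction fit, and Arg1 by 2.40, 2.52 and 2.16. Gpnmb stood at -1.16, -3.29 and -2.86, Mmp12 at -1.03, -2.86 and -3.54 and Cybb at 0.82, 0.20 and 0.06, with interaction adjusted p of 0.121, 0.314 and 0.180. Without the 2 files with the highest F3 share, 1287 genes were higher and 1230 lower, of which 1271 and 1204 were shared with the counts over all 17 files.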

How the data were processed

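Single-cell RNA of CD45-selected heart cells was deposited as molecule counts per cell and gene. Per the file headers, the authors made these counts with the BD Rhapsody WTA Analysis Pipeline (2.0b1 for library 1 and 1.10 for libraries 2 and 3), which collapses reads into molecules and corrects errors in the molecular identifiers, on GRCm38 with GENCODE annotation. No source used here states how reads of near-identical gene copies were assigned, or whether strand was used. The 18 files held 708 to 2494 cells each, with 10152522 to 62344127 molecules. No cell index was held by more than 1 file of a library (0), and 7 indices occurred in more than 1 library. No doublet caller was run here, so doublets remain among the cells of both sides.

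The members and lists were chosen with earlier results of these data known. F3-negative cells were drawn with a fixed seed within 4 bins of total molecules. Counts were summed per file and side (at least 270739 molecules on the F3-positive and 214882 on the F3-negative side) and tested with edgeR 4.0.16 (R 4.3.3): quasi-likelihood F test, TMM factors, filterByExpr with a minimum count of 10, file as a block. Both sides of a file are cells of the same replicate, which is where the pairing comes from. P values were adjusted over all 8202 genes tested, without F3 and the other genes of the definition (10 in all), at a threshold of 0.05. Tests over files used exact or 100000-resample permutations in scipy 1.17.1. The test was tried on simulated counts of 8202 genes, 200 of them changed equally often up and down, from a model like the one it fits. In that simulation 97.0% of 2-fold and 81.0% of 1.5-fold changes were called, with 7 false calls. In the data 36.8% of genes were called, so these rates need not hold there.

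Genes named were a fixed set around clotting and macrophage identity, the 12 largest differences each way (mean of at least 20 CPM, same direction in at least 13 of 17 files) and the 2 largest called members of each list (mean of at least 10 CPM). Alternatives changed the normalization, the tool (DESeq2 1.42.0), the filter, the block, the draw, the matching, the F3 and C1q thresholds, the depth, and left out libraries or files. A demultiplexing table named in the labels was not used, and some genes that the naming rule or the lists hold are not reported here.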

Additional observations from a re-analysis of the deposited data

Results flagged for a closer look

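In 30 groups of files (the files of 1 library, for the F3 share and for the per-file ratios of 9 genes), 3 values stood apart from the rest of their library by more than chance is likely to give in a single group, and chance alone gives about 1 in 20. The F3 share of macrophages was 23.2% in tag 10 of library 1, where the next highest file stood at 9.34% and the median at 5.17%. In library 3 the share was 17.1% in tag 7, with the next file at 6.75% and the median at 5.32%. The log2 ratio of Gpnmb, F3-positive over F3-negative cells of the file, was -2.47 in tag 10 of library 1, with the next file at -1.34. The labels used here tie none of these tags to a genotype or a time, and nothing further was tested.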

How the results depend on the processing

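Shares of cells with a transcript, and their differences, depend on depth, and molecules seen in a cell cannot be told apart from transcripts carried over from others. Leaving out 1 library or 1 file gave 1059 to 1620 genes higher, 888 to 1547 lower and an F7 difference of 1.12 to 2.00, with the lowest counts without library 1. Taking all F3-negative macrophages gave 2301 higher (and 2035 lower), thinning to 5000 molecules 667 and 553, and cells with 0 collagen and Dcn molecules (7 files) 746 lower. Cells without Prg4, Alox15, Gata6 and Serpinb2 gave 743 and 544, cells with exactly 1 F3 molecule 403 and 180 with F7 at 0.75. Library 1 alone gave 879 lower, library 2 alone 388 and 242, library 3 alone 655 and 535. The fit with no replicate block, which drops the pairing of the 2 sides of a file, gave 1145 higher, 1041 lower and 1.20 for F7, with F7 still called. The DESeq2 Wald test called 1611 and 1395. Genes differing between libraries numbered 424 without the filter on low counts, 63 by DESeq2, 178 with all F3-negative cells, 23 at 500 or more genes, 4 in thinned cells, 3 at an F3 threshold of 2 and 1 at a C1q share of 0.3%, against 0, and the cause was not tested.

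The median F3 share stayed between 2.21 and 5.17% over its alternatives, 2.21% in thinned cells. Among named genes only values that had not passed changed sign. F13a1 was 0.091 in the third draw, 0.030 at an F3 threshold of 2, 0.16 at a C1q share of 0.3%, 0.095 without collagen, 0.15 in library 1 alone, 0.11 in library 2 alone, 0.45 without cavity genes, 0.39 at exactly 1 F3 molecule, and -0.27 to 0.12 when 1 library or file was left out. Tfpi was 0.011 with all F3-negative cells and 0.019 at an F3 threshold of 2, and Plau 0.061 without the block. Tgfb1 was -0.033 in library 2 alone, -0.038 in library 3 alone and -0.032 to 0.20 when 1 library or file was left out.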
